A study of Mus musculus with 6 samples.

Results

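Chromosomes 1, 2 and 3 are the longest autosomes of the mouse, and their contacts were followed here along their length, with each other and with the rest of the genome. Every 1 Mb bin on these chromosomes was taken, which gave 540 of the 2666 bins of the map, with 198 bins on chromosome 1, 182 on chromosome 2 and 160 on chromosome 3. The study applied Hi-C, which crosslinks chromatin, cuts it and ligates ends that lie close in the nucleus, so that each sequenced junction records a contact. The cells were mouse embryonic fibroblasts on a 129xCast hybrid background, from 2 embryos with 3 technical replicates each, and the enzyme was HindIII with ligation in dilution. All 6 samples belong to this single group, without any treatment, and the deposited values form 1 map pooled by the authors. No sex or age is given for the embryos in the labels. A contact map holds no expression by which the labelled cell type could be checked.

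The series is described as allele-specific, and the name of the deposited table joins CAST and 129 with number codes. It was read as holding contacts between an end on a Cast chromosome and an end on a 129 chromosome, which the labels do not state. Under that reading a same-chromosome contact lies between homologs. Either way, the 129 end of a contact could not be separated from its Cast end, because the table is symmetric.

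Each chromosome of an interphase nucleus occupies a territory of its own, and in maps of all contacts the frequency within a chromosome falls steeply with distance. Stretches of a megabase or more also sort into classes, the A and B compartments, whose members meet members of their own class more often, on the same and on other chromosomes. Mouse chromosomes are telocentric, so that position 0 lies at the centromere and the highest coordinate at the distal telomere.

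The balanced values resolved into whole numbers of contacts, and all values below are observed over expected contacts. The expected number for a pair of bins was the product of a factor per bin, fitted to the contacts of that bin with other chromosomes. A value of 1 therefore stands for the mean level between different chromosomes. Bins with under 50% of the median number of partners on other chromosomes were left out, which kept 184, 150 and 148 bins. Chromosome 2 lost the largest share of the 3, 17.6%, against 7.07% of chromosome 1 and 7.50% of chromosome 3. Its longest stretch without a kept bin ran from 81 to 91 Mb, and bins from 0 to 3 Mb were left out on all 3 chromosomes. Contacts of a kept bin with other chromosomes ran from 627 to 2296 around a median of 1558.5, and autosomes 4 to 19 had a median of 1586. The kept bins took part in 668148 of 1776055 contacts between different chromosomes (37.6%), and 53773 of these joined chromosomes 1, 2 and 3 with each other. A further 27502 contacts joined bins of the same chromosome. With 1 pooled map there are no replicates, so every interval and p-value covers counting error only, and a difference between embryos could not be measured.

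Same-chromosome contact on the 3 longest autosomes was barely above the level between chromosomes. The ratio was 1.02 (95% Poisson interval 1.00 to 1.04) on chromosome 1, 1.03 (1.01 to 1.05) on chromosome 2 and 1.03 (1.01 to 1.05) on chromosome 3. These values overlap one another and the 1.03 (1.02 to 1.04) of autosomes 4 to 19. Over their length, however, contact was higher between close bins and lower between distant bins. Bins 1 Mb apart held 472 contacts against 330.0 expected, a ratio of 1.43 (1.30 to 1.57). The ratio was 1.10 (1.06 to 1.14) in the band of 10 to 19 Mb. It was 1.04 (1.02 to 1.07) in that of 20 to 49 Mb and 1.01 (0.988 to 1.03) in that of 50 to 99 Mb. Beyond 100 Mb contact lay below the level between chromosomes. Pairs at 100 to 129 Mb had 0.946 (0.914 to 0.980), pairs between 130 Mb and 160 Mb had 0.944 (0.900 to 0.989), and pairs at 160 Mb or more had 0.855 (0.779 to 0.936).

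**Figure D1:**
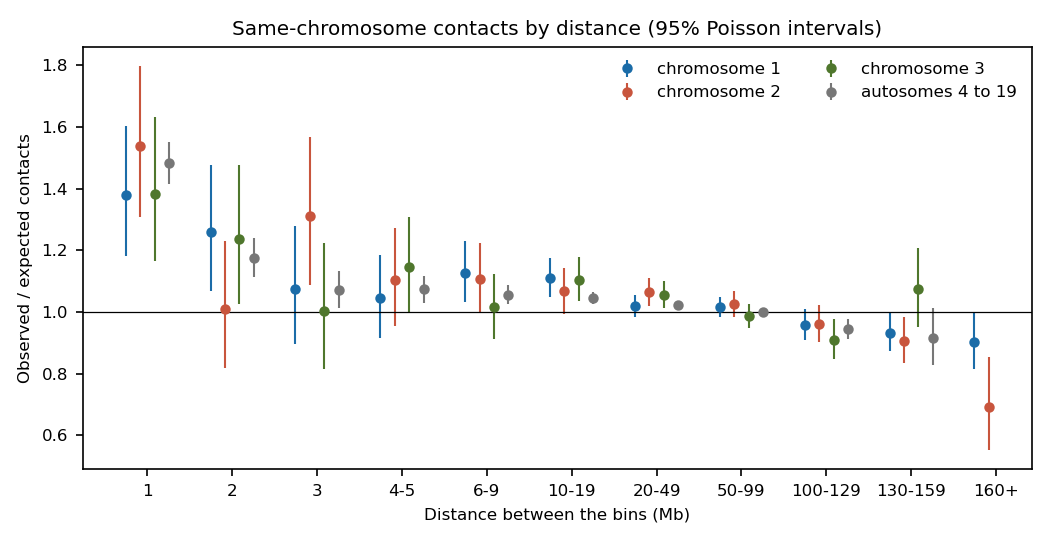
Same-chromosome contact by distance between bins. The horizontal axis gives distance bands in Mb and the vertical axis observed over expected contacts, with points for chromosomes 1, 2 and 3 and for autosomes 4 to 19 together and bars for 95% Poisson intervals. At 1 Mb the 3 chromosomes lie between 1.38 and 1.54, and at 160 Mb or more chromosome 1 has 0.904 and chromosome 2 has 0.691.

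At 1 Mb the 3 chromosomes had like values. Chromosome 1 had 173 contacts and a ratio of 1.38 (1.18 to 1.60), chromosome 2 had 158 contacts and 1.54 (1.31 to 1.80), and chromosome 3 had 141 contacts and 1.38 (1.16 to 1.63). The intervals overlap throughout. At 2 Mb the ratios were 1.26 (1.07 to 1.48), 1.01 (0.818 to 1.23) and 1.24 (1.03 to 1.48), so that chromosome 2 was at the level between chromosomes there. At 3 Mb it was chromosome 2 that lay above 1, at 1.31 (1.09 to 1.57), beside 1.07 (0.896 to 1.28) and 1.00 (0.814 to 1.22). Over the 3 chromosomes together the ratio went from 1.43 at 1 Mb to 1.18 (1.06 to 1.30) at 2 Mb, 1.12 (1.01 to 1.25) at 3 Mb and 1.09 (1.01 to 1.18) at 4 to 5 Mb, and it was 1.09 (1.03 to 1.15) at 6 to 9 Mb. The interval at 1 Mb lay above that at 2 Mb, and the intervals from 2 to 9 Mb overlapped. From 4 to 5 Mb the ratios in the same order were 1.04 (0.916 to 1.18), 1.10 (0.955 to 1.27) and 1.14 (0.997 to 1.31), and from 6 to 9 Mb 1.13 (1.03 to 1.23), 1.11 (0.998 to 1.22) and 1.01 (0.914 to 1.12).

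At middle distances chromosomes 1 and 3 exceeded 1 from 10 to 19 Mb, with 1.11 (1.05 to 1.17) and 1.10 (1.04 to 1.18), beside 1.07 (0.994 to 1.14) on chromosome 2. From 20 to 49 Mb the ratios were 1.02 (0.982 to 1.06), 1.07 (1.02 to 1.11) and 1.06 (1.01 to 1.10). From 50 to 99 Mb all 3 intervals held 1, at 1.02 (0.983 to 1.05), 1.03 (0.985 to 1.07) and 0.986 (0.948 to 1.03). From 100 to 129 Mb the ratios were 0.958 (0.909 to 1.01), 0.960 (0.902 to 1.02) and 0.910 (0.849 to 0.976). Between 130 Mb and 160 Mb chromosomes 1 and 2 lay below 1, at 0.933 (0.872 to 0.997) and 0.907 (0.835 to 0.984), and chromosome 3 did not, at 1.07 (0.950 to 1.21). The band of 160 Mb or more exists on the 2 longest chromosomes only. Chromosome 1 had 377 contacts and 0.904 (0.815 to 1.00) there, and chromosome 2 had 86 contacts and 0.691 (0.552 to 0.853). Chromosome 2 over chromosome 1 gave 0.764 (0.598 to 0.968, p = 0.0235, two-sided exact conditional binomial test, not adjusted), a contrast that was chosen after the values were seen. Without the 10 Mb at both chromosome ends the band had 0.979 (0.815 to 1.17) on chromosome 1, and 0.639 with an interval of 0.0774 to 2.31 on chromosome 2, so that this depth no longer showed a difference from 1.

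Across chromosomes and bands, 11 of 32 intervals lay above 1 (34.4%) and 5 below 1 (15.6%), where autosomes 4 to 19 had 20.4% above and 1.41% below. Shorter chromosomes have no pairs at the longest distances, so these shares do not cover the same bands. Shorter chromosomes also hold fewer contacts, which widens their intervals. Chromosomes 1, 2 and 3 had 11703, 8022 and 7777 same-chromosome contacts, against 71493 over the 16 others together. The shares therefore do not compare the size of the ratios. At 1 Mb autosomes 4 to 19 had 1.48 (1.41 to 1.55), beside 1.43 (1.30 to 1.57) on the 3. Setting each chromosome against autosomes 4 to 19 in the same band, 0 of 30 exact conditional binomial tests passed Benjamini-Hochberg adjustment (0%), and 2 had an unadjusted p under 0.05 (6.67%). By the exact test those were chromosome 2 at 3 Mb, at 1.22 times the other autosomes (1.00 to 1.48, p = 0.0374), and chromosome 3 between 130 Mb and 160 Mb, at 1.17 times (1.00 to 1.37, p = 0.0449).

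Part of the distance profile was also seen between different chromosomes. Pairs of bins on different members of the 3 whose coordinates differed by 1 Mb had 1.09 (1.01 to 1.18), an offset of 10 to 19 Mb gave 1.06 (1.03 to 1.09), and 100 to 129 Mb gave 0.973 (0.949 to 0.997). An offset of 6 to 9 Mb gave 1.05 (1.01 to 1.10). The intervals of all other offsets held 1, among them 2 Mb at 1.06 (0.976 to 1.15) and 20 to 49 Mb at 1.01 (0.995 to 1.03). Relative to these pairs, same-chromosome contact was raised at 1 Mb by a factor of 1.31 (1.16 to 1.48, adjusted p = 0.000129), the only 1 of 11 bands that passed the exact conditional binomial test after adjustment (9.09%). The factor was 1.04 (0.990 to 1.08) for 10 to 19 Mb and 0.905 (0.809 to 1.01) for 160 Mb or more. For 20 to 49 Mb it was 1.03 (1.00 to 1.06, exact binomial, adjusted p = 0.167). At some offsets, but not at most, contact between chromosomes thus differed from 1 as well. The part of like distance from the centromere in the same-chromosome values beyond 1 Mb was not tested further.

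Each chromosome was next divided into segments of 10 Mb, and contacts were summed for each pair of segments of the same chromosome. Of the 1939 such pairs of the map with at least 10 expected contacts, 1 passed the two-sided exact Poisson test after Benjamini-Hochberg adjustment (0.0516%), and it lay on chromosome 3. On chromosomes 1, 2 and 3, 505 pairs were tested, and 37 had an unadjusted p under 0.05 (7.33%, beside 7.27% over all pairs of the map), of which 26 were higher (5.57% over the map) and 11 lower (1.7%).

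Contact of a segment with itself was mostly above 1, here as on the other autosomes. It exceeded 1 in 16 of 20 segments of chromosome 1, 11 of 15 of chromosome 2 and 9 of 15 of chromosome 3. On autosomes 4 to 19 it did so in 127 of 173 segments. The medians were 1.14, 1.13 and 1.06 on chromosomes 1, 2 and 3, and 1.15 on autosomes 4 to 19. Pairs of different segments had medians of 1.02, 1.02 and 1.01. The called segment was chromosome 3 from 90000001 to 100000000 (mm9), which met itself 42 times against 18.1 expected, a ratio of 2.32 (1.67 to 3.14, exact Poisson, adjusted p = 0.00433). Its 9 kept bins form 36 pairs, of which 15 held a contact. The bins that start at 93000001 and 94000001 alone held 9 contacts against 0.346 expected. Without that pair the ratio of the segment was 1.86 (1.28 to 2.61), and over pairs at least 2 Mb apart it was 1.99 (1.33 to 2.85, 29 contacts). The bins of the segment were sparse, with a median of 1248 contacts with other chromosomes. The call was lost with the variance scaled by the dispersion of all pairs and, in the exact Poisson test, with the autosomal distance curve in the expected value (1.99). The adjusted p-values were 0.0722 and 0.114. With the bin filter at 80%, 6 bins with 17 contacts against 9.88 expected remained, too few to be tested, and windows shifted by 5 Mb gave 1.47 (1.00 to 2.07) for 85 to 95 Mb and 1.15 (0.727 to 1.72) for 95 to 105 Mb.

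**Figure D2:**
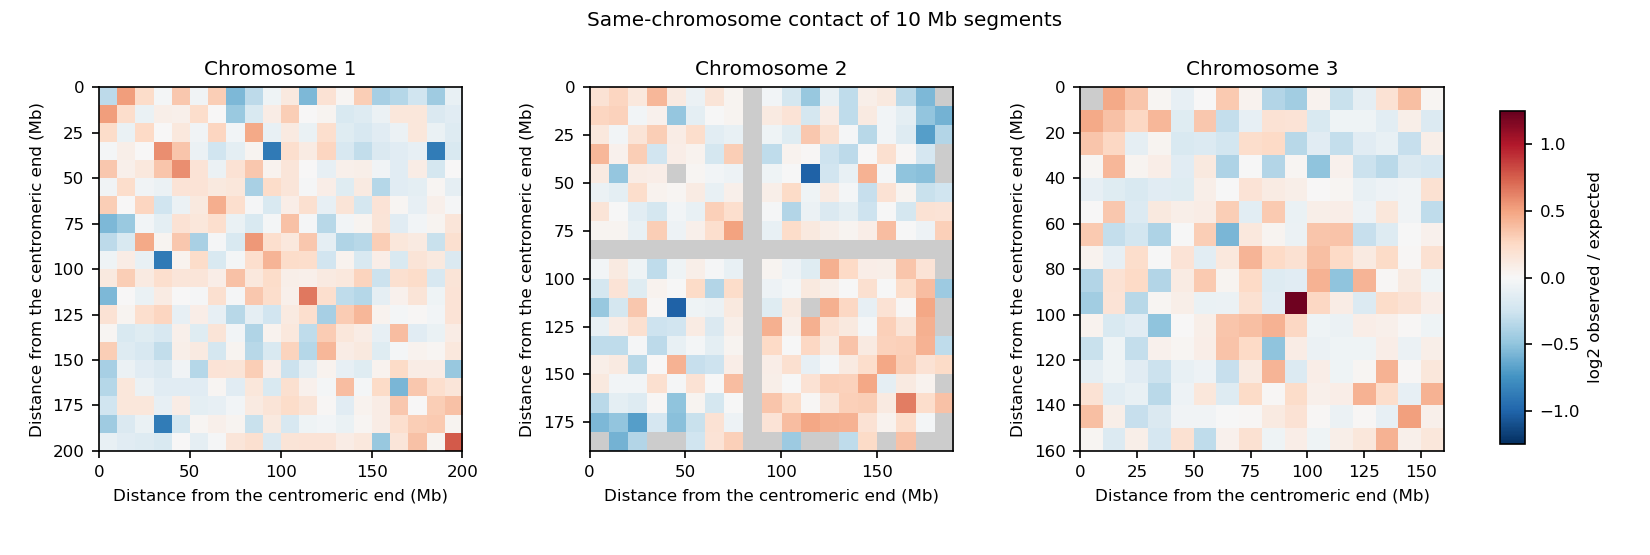
Contact between 10 Mb segments of chromosomes 1, 2 and 3. Both axes give distance from the centromeric end in Mb, the colour gives log2 of observed over expected contacts (red above and blue below the level between chromosomes), and grey marks pairs with under 10 expected contacts. The strongest red square on the diagonal of chromosome 3, at 90 to 100 Mb, has a ratio of 2.32. Near the upper right corner of chromosome 2, the squares of 170 to 180 Mb with 0 to 10, 10 to 20 and 20 to 30 Mb are blue. None of these blue squares passed adjustment, and the corner square itself is grey.

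The other segment pairs of lowest p did not pass adjustment. On chromosome 1 the higher ones were 0 to 10 Mb with 10 to 20 Mb at 1.44, 190 to 198 Mb with itself at 1.70 and 40 to 50 Mb with itself at 1.49. The lower ones there were 30 to 40 Mb with 180 to 190 Mb at 0.547 (0.376 to 0.768, exact Poisson, adjusted p = 0.112), the same segment with 90 to 100 Mb at 0.543, and 10 to 20 Mb with 70 to 80 Mb at 0.724. The first of these passed without the bin filter, at 0.545 (exact Poisson, adjusted p = 0.0278), where 8 of 1970 pairs of the map passed (0.406%). On chromosome 2 all 6 pairs held a segment beyond 130 Mb. The higher ones were 140 to 150 Mb with 150 to 160 Mb at 1.40, 160 to 170 Mb with itself at 1.55 and 130 to 140 Mb with 170 to 180 Mb at 1.35. The lower ones joined 170 to 180 Mb with the proximal segments 20 to 30 Mb at 0.619, 10 to 20 Mb at 0.712 and 0 to 10 Mb at 0.676. On chromosome 3, 130 to 140 Mb with 150 to 160 Mb had 1.35, 120 to 130 Mb with 130 to 140 Mb had 1.35, and 30 to 40 Mb with 100 to 110 Mb had 0.705. The further lower ones were 80 to 90 Mb with 110 to 120 Mb at 0.707 and 30 to 40 Mb with 130 to 140 Mb at 0.791.

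Segments of 20 Mb, which hold more contacts each, gave 3 calls among the 145 pairs of these chromosomes, out of 18 calls among 583 pairs of the map (3.09%). On chromosome 2, 0 to 20 Mb met 160 to 180 Mb 194 times against 246 expected, a ratio of 0.787 (0.680 to 0.906, adjusted p = 0.0239, exact Poisson test). The distal segments 120 to 140 Mb and 160 to 180 Mb met at 1.26 (1.12 to 1.42, exact Poisson, adjusted p = 0.0170). On chromosome 3, 60 to 80 Mb and 100 to 120 Mb met at 1.25 (1.11 to 1.42, exact Poisson, adjusted p = 0.0230). Segments of 10 Mb shifted by 5 Mb gave 6 calls among 1996 pairs of the map (0.301%), of which 1 lay here, chromosome 1 from 35 to 45 Mb with itself, at 1.87 (1.43 to 2.40, exact Poisson, adjusted p = 0.00832). Which pair of segments passed therefore depended on where the segments were placed and how long they were. The exact Poisson tests of these settings take counting error alone. Over the 10 Mb same-chromosome pairs of the map at the main setting, the variance was 1.35 times that of counting error. Scaled variance was not applied to the 20 Mb or the shifted segments.

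A split of a chromosome into a proximal and a distal domain was measured as contact within both sides over contact across. Over all pairs of bins, chromosome 2 had the highest value of the 19 autosomes, 1.18 at 73 Mb, with 1.11 within and 0.945 across. Chromosome 3 had 1.14 at 39 Mb and chromosome 1 had 1.10 at 122 Mb, and autosomes 4 to 19 had 1.10 ± 0.0286 (SD over 16 chromosomes). The maximum of chromosome 1 was flat, with 15 of 157 positions, spread from 71 to 133 Mb, at 90% or more of its excess over 1. To measure a split apart from its choice, the position was chosen on pairs of even bins and read out on pairs of odd bins. The readouts were 1.06 (0.983 to 1.14) on chromosome 1, 1.12 (1.02 to 1.22) on chromosome 2 and 1.05 (0.959 to 1.14) on chromosome 3. That of chromosome 2 had an unadjusted p of 0.0159 and an adjusted p of 0.0754 over the 19 autosomes, of which 2 passed (10.5%), so none of the 3 longest did in the exact conditional binomial test. The choice on odd bins gave chromosome 2 a position of 50 Mb in place of 79 Mb and a readout of 1.15 (1.05 to 1.26, exact binomial, adjusted p = 0.0200). With the autosomal distance curve in the expected value the readout of chromosome 2 was 1.05 (0.956 to 1.14). Those of chromosomes 1 and 3 were then 0.995 and 0.994. The splits of these chromosomes were thus not separated from the general decline with distance.

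**Figure D3:**
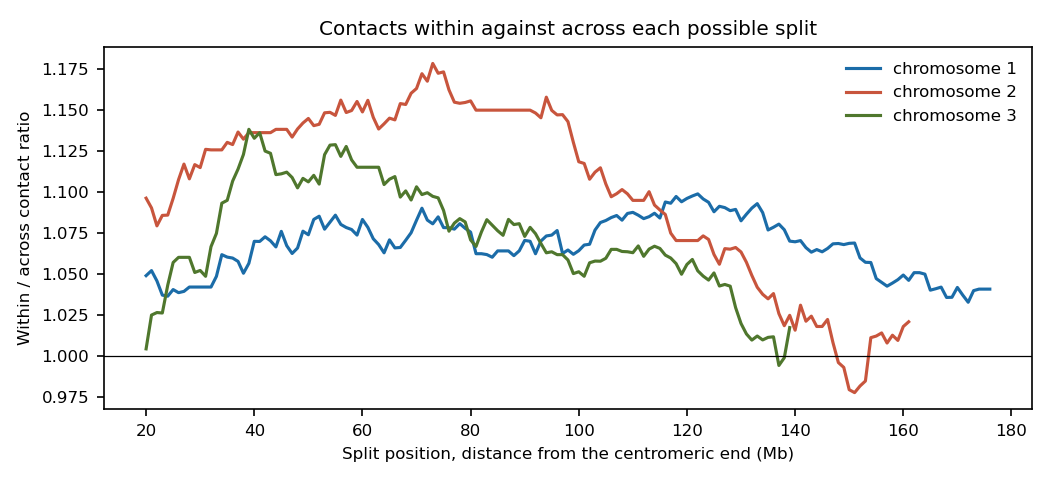
Contact within over across each possible split. The horizontal axis gives the split position as distance from the centromeric end in Mb, the vertical axis the ratio of observed over expected contacts within both sides to that across, over all pairs of bins, with a line per chromosome. Chromosome 2 peaks at 73 Mb with 1.18, chromosome 3 at 39 Mb with 1.14, and the line of chromosome 1 is flat around its peak of 1.10.

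Bins were then classed by their contacts with other chromosomes alone. The score was the leading eigenvector of observed over expected minus 1, class 1 being the sign with fewer bins; without expression or chromatin marks neither class was called active. Class 1 held 42.9% of the kept bins of chromosome 1, 40.7% of chromosome 2 and 38.5% of chromosome 3, beside 42.1% on autosomes 4 to 19. Neighbouring bins were alike in score, with a Pearson correlation of 0.509 over 460 neighbour pairs, and 66.7% of neighbours had the same class. The score had a correlation of −0.0635 with log contacts over 482 bins. The part of depth or local base composition in the likeness of neighbours was not tested. Runs of like bins were short, with 171 runs and a mean of 2.82 bins, beside 3.01 bins on autosomes 4 to 19. A single bin made up 44.4% of the 63 runs of chromosome 1, 53.1% of the 64 of chromosome 2 and 18.2% of the 44 of chromosome 3, beside 36.3% on autosomes 4 to 19. Of neighbouring bins 1 Mb apart, 60% shared a class on chromosome 2, 67.4% on chromosome 1 and 72.5% on chromosome 3. On autosomes 4 to 19, 68.9% did. Chromosome 2 is also the one with the most bins left out, and the part of those gaps in its short runs was not tested.

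**Figure D4:**
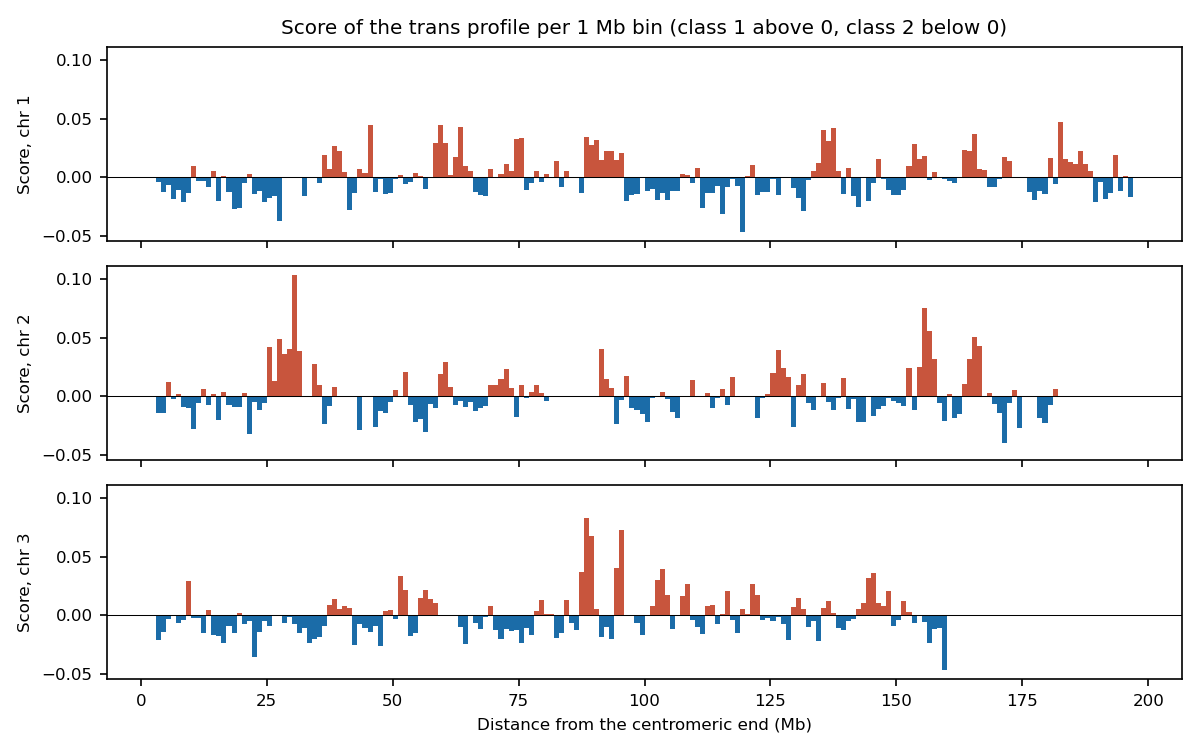
Score of the trans contact profile along chromosomes 1, 2 and 3. The horizontal axis gives distance from the centromeric end in Mb and the vertical axis the score (no unit) of each kept 1 Mb bin, with class 1 in red above 0 and class 2 in blue below 0. Class 1 forms short peaks, the highest of them on chromosome 2 near 30 Mb, between broader stretches of class 2.

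The longest runs of class 1 on chromosome 1 were 58000001 to 66000000 and 88000001 to 96000000, of 8 bins each, and 69000001 to 76000000, of 7 bins. Its longest runs of class 2 were 96000001 to 107000000 and 122000001 to 133000000, of 11 bins each, and 111000001 to 120000000, of 9 bins. On chromosome 2 class 1 ran from 25000001 to 32000000 over 7 bins, which had the highest mean score of the named runs, 0.0461, and from 69000001 to 74000000 and 124000001 to 129000000 over 5 bins each. Its class 2 runs were 140000001 to 152000000 with 11 bins, 62000001 to 69000000 with 7 and 53000001 to 59000000 with 6. On chromosome 3 class 1 ran from 142000001 to 149000000 with 7 bins, 37000001 to 42000000 with 5 and 55000001 to 59000000 with 4. Its class 2 runs were 28000001 to 37000000 with 9 bins, 70000001 to 78000000 with 8 and 153000001 to 160000000 with 7. Some of the named runs tied in length with runs further from the centromere, which were not named or measured. Those of class 1 begin at 182 Mb on chromosome 1, 163 Mb on chromosome 2, and 78, 87 and 101 Mb on chromosome 3. That of class 2 begins at 97 Mb on chromosome 2. Contact of the 18 named runs with bins of like over unlike class on their own chromosome, over 10 Mb away, had a median of 1.07 and exceeded 1 in 14 runs. In the exact conditional binomial test 0 of 18 passed adjustment (0%), and 3 had an interval above 1. Those were chromosome 3 from 55 to 59 Mb at 1.33 (1.07 to 1.65), chromosome 2 from 25 to 32 Mb at 1.21 (1.02 to 1.44) and chromosome 3 from 28 to 37 Mb at 1.18 (1.03 to 1.36).

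To measure contact between the classes in contacts that had not set them, the score was fitted again with every contact among chromosomes 1, 2 and 3 hidden. Like bins then met slightly more than unlike bins, by a few percent. Between different chromosomes of the 3, pairs of class 1 had a ratio of 1.05 (1.03 to 1.07), pairs of class 2 had 1.01 (1.00 to 1.03) and unlike pairs 0.992 (0.980 to 1.00). Like over unlike was 1.03 (1.02 to 1.05, adjusted p = 0.000645, exact conditional binomial test). This value did not pass the test under a stricter bin filter or without one. Without a filter it was 1.01 (0.988 to 1.02, exact binomial, p = 0.562). With the bin filter at 80% it was 1.01 (0.994 to 1.03, exact binomial, p = 0.200), and with a score from standardised differences, tried after the values were seen, it was 1.03 (1.01 to 1.05) at the main filter and 1.01 (0.987 to 1.03, p = 0.528) at 80%.

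On the same chromosome, at least 10 Mb apart, class 1 pairs had 1.03 (1.00 to 1.07), class 2 pairs 1.04 (1.02 to 1.06) and unlike pairs 0.984 (0.967 to 1.00). Like over unlike was 1.05 (1.03 to 1.08, exact binomial, adjusted p = 0.000542), and the standardised score gave 1.06 (1.03 to 1.09) at the 80% filter. Without a bin filter the main score gave 0.977 (0.951 to 1.00), and 20 of the 2573 bins then held 99.96% of its squared weight, against 13.6% in the main setting. The standardised score without a filter gave 1.06 (1.04 to 1.09) on the same chromosome and 1.03 (1.02 to 1.05) between chromosomes. With the middle of the score range omitted, so that only its upper and lower tertile of bins entered, like over unlike was 1.10 (1.06 to 1.14) on the same chromosome and 1.08 (1.05 to 1.11) between chromosomes.

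Of the 13 tests of this family, 7 passed adjustment (53.8%), all with more contact between like bins. The tested sets overlap, so the passes are not independent of one another. Chromosome pairs are parts of the set between different chromosomes. Single chromosomes, and the distance bands from 10 Mb on, are parts of the same-chromosome set. Chromosomes 1 and 2 met at a like over unlike ratio of 1.04 (1.01 to 1.07, exact binomial, adjusted p = 0.0221), 1 and 3 at 1.03 (1.00 to 1.06, adjusted p = 0.0601) and 2 and 3 at 1.03 (1.00 to 1.07, adjusted p = 0.0649). Within chromosomes the ratio was 1.06 (1.02 to 1.10) on chromosome 1, 1.05 (0.999 to 1.10) on chromosome 2 and 1.06 (1.01 to 1.11) on chromosome 3. These values do not differ beyond their intervals. In bands of distance, like over unlike was 1.00 (0.932 to 1.08) for pairs 1 to 9 Mb apart, 1.05 (0.980 to 1.13) for those at 10 to 19 Mb, and 1.03 (0.987 to 1.08) at 20 to 49 Mb. It passed from 50 to 99 Mb, at 1.06 (1.02 to 1.11, exact binomial, adjusted p = 0.0209), and from 100 Mb on, at 1.07 (1.02 to 1.13, adjusted p = 0.0224). The intervals of all 5 bands overlap, so that no change with distance was shown.

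**Figure D5:**
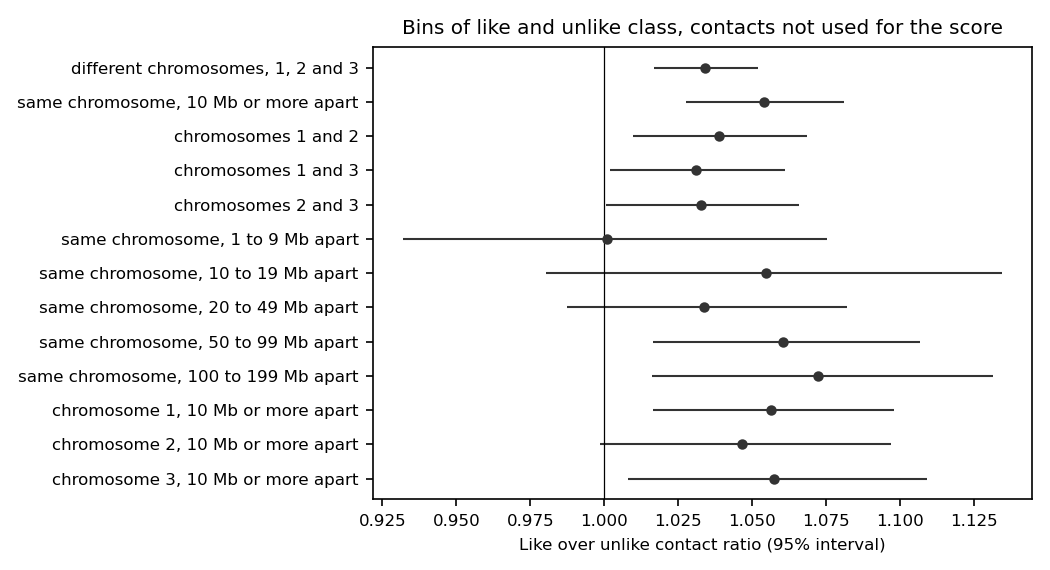
Contact of like over unlike bins in contacts that were hidden when the score was fitted. The horizontal axis gives the ratio with its 95% interval, and each row a set of contacts among or within chromosomes 1, 2 and 3. Contacts between different chromosomes have 1.03 and same-chromosome contacts at least 10 Mb apart 1.05, and those from 1 to 9 Mb apart have 1.00.

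The same measure was taken on groups of 3 other chromosomes, each with its own contacts hidden. Chromosomes 4, 5 and 6 had 1.05 (1.03 to 1.07) between and 1.07 (1.04 to 1.11) within chromosomes, and chromosomes 7, 8 and 9 had 1.08 (1.06 to 1.11) and 1.11 (1.07 to 1.15). Chromosomes 17, 18 and 19 had 1.07 (1.04 to 1.11) and 1.04 (0.987 to 1.10). Over 6 tests of the difference, chromosomes 7, 8 and 9 exceeded the 3 longest by a factor of 1.05 (1.02 to 1.08) between chromosomes and 1.06 (1.01 to 1.10) within them. Both passed adjustment and the other 4 differences did not, with intervals that held 1. These groups were chosen after values of the map had been seen.

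Single 10 Mb segments showed the classes less clearly. Contact with class 1 over class 2 bins of the other chromosomes among the 3 had an unadjusted p under 0.05 in 12 of 55 segments (21.8%) and passed adjustment in none. Class 1 was preferred in 7 of the 12 and class 2 in 5, and all 12 lay on the side of their own mean score. Over all 55 segments, however, only 38 did. No such shares are given for segments of other autosomes. The lowest p belonged to chromosome 1 from 130 to 140 Mb, at 1.14 (1.04 to 1.25, adjusted p = 0.173, exact conditional binomial test), and the next to chromosome 2 from 140 to 150 Mb, at 0.891 (0.817 to 0.970). Over 53 segments with at least 5 kept bins the preference and the mean score had a Pearson correlation of 0.62 and a Spearman correlation of 0.60. The segments share 1 map and their partner bins, and no p is given.

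The partners of each segment on other chromosomes were close to even. Of 33045 segment pairs on different chromosomes with at least 10 expected contacts, 0 passed adjustment in the exact Poisson test (0%). Of the 12256 that held a segment of chromosome 1, 2 or 3, 685 had an unadjusted p under 0.05, or 5.59%, beside 5.53% over all pairs. A pair had a median of 55.8 expected contacts, so that only large differences could be seen at this depth. The variance over all pairs was 1.12 times that of counting error.

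None of these pairs passed, and the smallest adjusted p was 0.440. Ratios over the 12256 pairs ran from 0.187 to 2.21, and the pairs named here are those of lowest p in each direction. For chromosome 1 the higher ones were 130 to 140 Mb with chromosome 7 at 140 to 150 Mb (1.44), 150 to 160 Mb with chromosome 4 at 140 to 150 Mb (1.72) and 160 to 170 Mb with chromosome 2 at 90 to 100 Mb (1.51). The next were 140 to 150 Mb with chromosome 2 at 130 to 140 Mb (1.45) and 120 to 130 Mb with chromosome 17 at 70 to 80 Mb (1.45). Its lower ones were 170 to 180 Mb and 20 to 30 Mb with the first 10 Mb of chromosome 5 (0.406 and 0.493), and 180 to 190 Mb with the first 10 Mb of chromosome 6 (0.591). The rest were 40 to 50 Mb with X at 60 to 70 Mb (0.548) and 10 to 20 Mb with chromosome 16 at 30 to 40 Mb (0.531).

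For chromosome 2 the higher ones were its last bins from 180 to 182 Mb with chromosome 7 at 130 to 140 Mb (2.21) and 170 to 180 Mb with the last 10 Mb of chromosome 3 (1.51). The next were 130 to 140 Mb with chromosome 5 at 130 to 140 Mb (1.42) and at 110 to 120 Mb (1.44), beside the pair with chromosome 1 given above. Its lower ones were 70 to 80 Mb with chromosome 19 at 50 to 60 Mb (0.550), 150 to 160 Mb with chromosome 13 at 80 to 90 Mb (0.564) and 170 to 180 Mb with chromosome 5 at 30 to 40 Mb (0.610). Segment 110 to 120 Mb had 0.416 with chromosome 5 at 20 to 30 Mb and 0.482 with chromosome 9 at 60 to 70 Mb.

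For chromosome 3 the lowest p of the 3 chromosomes was found, 20 to 30 Mb with the first 10 Mb of chromosome 6, which met 66 times against 38.2 expected, at 1.73 (1.34 to 2.20, exact Poisson, p = 5.58e-05). The further higher ones were 80 to 90 Mb with chromosome 11 at 110 to 120 Mb (1.48), 130 to 140 Mb with chromosome 6 at 70 to 80 Mb (1.46) and 110 to 120 Mb with chromosome 10 at 70 to 80 Mb (1.45). Its lower ones were 120 to 130 Mb with chromosome 17 at 10 to 20 Mb (0.534) and with chromosome 8 at 10 to 20 Mb (0.636), and 10 to 20 Mb with chromosome 16 at 30 to 40 Mb (0.501). The rest were 20 to 30 Mb with chromosome 7 at 130 to 140 Mb (0.567) and 140 to 150 Mb with the first 10 Mb of chromosome 4 (0.566).

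Sums of a segment with a whole chromosome hold more contacts, with a median of 690 expected. Here too 0 of 5130 passed the exact Poisson test after adjustment (0%), and 86 of the 1045 of chromosomes 1, 2 and 3 had an unadjusted p under 0.05, or 8.23%, beside 6.51% over all. Ratios ran from 0.591 to 1.28, and those named are again of lowest p in each direction. On chromosome 1 the higher ones were 170 to 180 Mb with chromosome 2 at 1.12 (1.05 to 1.21), 190 to 198 Mb with chromosome 2 at 1.10 and 70 to 80 Mb with chromosome 11 at 1.09. The lower ones were 0 to 10 Mb with chromosome 11 at 0.866, 100 to 110 Mb with chromosome 19 at 0.865 and 150 to 160 Mb with chromosome 18 at 0.894. On chromosome 2 the segment 130 to 140 Mb had 1.11 (1.05 to 1.17) with chromosome 5 and 1.09 (1.04 to 1.15) with chromosome 1. Its segment 170 to 180 Mb had 1.14 with X and 0.809 (0.714 to 0.914) with chromosome 19, the lowest p on the 3 chromosomes (exact Poisson, adjusted p = 0.324). The other lower ones were 30 to 40 Mb with X at 0.832 and 70 to 80 Mb with chromosome 19 at 0.849. On chromosome 3 the higher ones were 150 to 160 Mb and 50 to 60 Mb with chromosome 2, at 1.09 and 1.08, and 10 to 20 Mb with chromosome 8 at 1.09. The lower ones were 60 to 70 Mb with chromosome 7 at 0.875, 80 to 90 Mb with chromosome 10 at 0.906 and 110 to 120 Mb with chromosome 17 at 0.880.

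Whole chromosomes met evenly. The 54 chromosome pairs that hold 1 of the 3 ran from 0.969 to 1.02, and 0 of the 190 pairs of the map passed the exact Poisson test after adjustment (0%), with 5 of the 54 and 14 of the 190 under an unadjusted p of 0.05 (7.37% of all). Chromosome 1 met chromosomes 7 and 2 most, at 1.02 (1.01 to 1.04) and 1.02 (1.00 to 1.03), and chromosomes 15 and 19 least, at 0.976 (0.958 to 0.995) and 0.978 (0.955 to 1.00). Chromosome 2 met chromosome 1 and then 9 most, the latter at 1.01 (0.992 to 1.03), and 19 and 17 least, at 0.976 and 0.980. Chromosome 3 met 14 and 5 most, both at 1.01, and 16 and 19 least, at 0.969 (0.949 to 0.989) and 0.981 (0.956 to 1.01). Chromosome 19, the shortest autosome, was thus among the 2 lowest partners of each, although no such pair passed the test.

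Chromosome ends, in contrast, differed beyond counting error when summed. The 10 Mb next to the centromere of the 3 chromosomes met the same end of other chromosomes at 1.09 (1.04 to 1.15, 1678 contacts) and their distal ends at 0.931 (0.894 to 0.969). Their distal 10 Mb met other distal ends at 1.09 (1.06 to 1.13, 3533 contacts) and centromeric ends at 0.895 (0.856 to 0.936). Autosomes 4 to 19 had 1.10 and 1.07 for like ends and 0.945 and 0.952 for unlike ends. Contacts between an end of the 3 chromosomes and an end of autosomes 4 to 19 enter both sets of values, which are not independent. Distal ends met most on chromosome 2, at 1.16 (1.08 to 1.23), and chromosome 1, at 1.14 (1.08 to 1.20), while chromosome 3 had 1.04 (0.982 to 1.09), with the difference between them not tested. Centromeric ends met at 1.09 (0.999 to 1.18), 1.07 (0.991 to 1.15) and 1.12 (1.03 to 1.22) on chromosomes 1, 2 and 3. The centromeric and the distal end of the same chromosome met 40, 28 and 43 times, at 0.837 (0.598 to 1.14), 0.680 (0.452 to 0.983) and 1.02 (0.738 to 1.37).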

How the data were processed

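Signal values after matrix balancing were deposited for pairs of 1 Mb bins, pooled by the authors, and a second deposited table gives bin positions (other values). HiC-Pro 2.7.8 and bedtools are the tools, and mm9 the build, in the submitters' processing notes. Not given in the sources used here are the aligner, read filters, balancing settings and pooled libraries. Coordinates are 1-based on mm9. No annotation or sequence of that build was used here, so that genes in the bins are not named.

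Whole contacts resulted for all 1365118 listed pairs within 0.01 once a factor per bin was removed, giving 1955524 contacts, and 67.7% of the pairs held a single contact. PCR copies are not independent molecules, and intervals cover counting error only. Of all bins, 2341 were kept, those with at least 50% of the median of 1087 partners on other chromosomes. Tests were run over the whole map and adjusted by Benjamini-Hochberg over each family. The threshold was an adjusted p of 0.05. Runs joined kept bins of like sign with starts at most 2 Mb apart. Splits lay at least 20 Mb from both ends. Steps were tested on simulated data, where classes from the fitted score returned a smaller like over unlike ratio than was put in. Versions were 1.17.1 of scipy, 2.4.6 of numpy, 2.3.3 of pandas and 3.11.15 of Python, and matplotlib 3.10.9 drew the figures.

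Named items were every distance band, the 3 highest and 3 lowest same-chromosome segment pairs by p per chromosome, the best split, the 3 longest runs per class, the 5 higher and 5 lower trans segment pairs of lowest p, the 3 higher and 3 lower segment by chromosome values of lowest p, the 3 most alike segment profiles and the 2 highest and 2 lowest chromosome pairs. Of runs tied in length, those nearest the centromere were named. The chromosomes, measures and lists were chosen with earlier results of these data known. Measures added after seeing values were the comparison with different chromosomes at like offset, the ends, the contact of named runs, the class preference of segments, the standardised score and the other groups of chromosomes. Alternatives were the balanced signal, other bin filters, omitted ends, other segments, scaled variance, the distance curve, other scores and each chromosome omitted.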

Additional observations from a re-analysis of the deposited data

Results flagged for a closer look

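Contacts with both ends in the same bin entered no comparison. On chromosomes 1, 2 and 3 there were 490 of them in kept bins, against 175 expected from the bin factors, a ratio of 2.80 (95% Poisson interval 2.56 to 3.06). Autosomes 4 to 19 had 3.38 (3.24 to 3.53). Another 17462 contacts touched 1 of the 47 bins of these chromosomes that were left out for few partners but held a value. Contacts per such bin ran from 1 to 672 around a median of 383, where a count of 0 allows 3. Both were singled out because they are signal outside the main measurement.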

How the results depend on the processing

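The 80 named segment, chromosome and distance values kept their direction with the balanced signal and without the bin filter, as did the 78 that the filter at 80% left and the 66 without the 10 Mb at chromosome ends. The call of chromosome 3 from 90 to 100 Mb was lost with scaled variance and with the distance curve. Same-chromosome segment pairs called on chromosomes 1, 2 and 3 numbered 1 of 1 on the map, against 2 of 8 without the bin filter, 3 of 18 with segments of 20 Mb, and 0 with the filter at 80%, segments of 5 Mb, scaled variance or the distance curve, settings that called 1 pair elsewhere with segments of 5 Mb and otherwise 0 on the map. With segments of 5 Mb and with the filter at 80% the called segment had under 10 expected contacts.

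The split of chromosome 2 (1.12) gave 1.08 without the bin filter, 1.08 with the filter at 80%, 1.06 without the 10 Mb at chromosome ends and 1.05 with the distance curve, none with an unadjusted p under 0.05. The split of chromosome 1 gave 1.09 (p = 0.0308, exact conditional binomial test) with the filter at 80% and 0.995 with the distance curve, and that of chromosome 3 gave 1.16 (p = 0.00462) without chromosome ends and 0.994 with the distance curve. Runs numbered 108 with the score averaged over 3 bins, against 171.

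Like over unlike contact between different chromosomes (1.03) was 1.01 (0.988 to 1.02) without the bin filter, 1.01 with the filter at 80% and 1.01 with the standardised score and that filter. On the same chromosome it was 0.977 without the bin filter, where few bins carry the score, and otherwise stayed past the threshold in the alternatives with a test, also with each chromosome omitted. Same-chromosome contact from 10 to 19 Mb (1.10) was 1.04 against different chromosomes at like offset. Other causes were not tested. No paired analysis was possible because there is 1 group and its samples were pooled into 1 map.

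Depth limits single values, since a 10 Mb trans segment pair had a median of 55.8 expected contacts, and a difference between embryos cannot be seen.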

Other observations

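The contact profiles of 10 Mb segments over 200 segments of the other chromosomes were little alike. Trans segment pairs had a median of 55.8 expected contacts, and counting error lowers such correlations. By how much was not measured, so low values do not show that the underlying profiles differ. Over 932 pairs of segments on different chromosomes of the 3, the mean Pearson correlation was 0.0009, and neighbouring segments had a mean of 0.029 over 49 pairs. The most alike were chromosome 1 from 180 to 190 Mb and chromosome 3 from 140 to 150 Mb, at 0.24, chromosomes 2 and 3 each from 10 to 20 Mb, at 0.24, and chromosome 1 from 120 to 130 Mb and chromosome 2 from 150 to 160 Mb, at 0.21. The first 2 pairs had mean scores of the same sign and the third had not. Negative correlations were about as large. The least alike were chromosome 1 from 0 to 10 Mb and chromosome 3 from 150 to 160 Mb, at −0.23.

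The spread of a segment over its partners, as a multiple of counting error, was highest for chromosome 2 from 170 to 180 Mb, at 1.49, and that from 160 to 170 Mb followed at 1.38. The median over segments of the 3 chromosomes was 1.12, beside 1.11 on autosomes 4 to 19, where the highest segment had 1.57.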
